A study of Homo sapiens with 3 samples.

Results

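The ERBB receptors and their EGF-family ligands were described in cultured MDA-MB-231 cells carrying a hairpin against RRAS2. The level of RRAS2 itself was not examined here. The set held 10 genes defined by family membership, with no measured value in the rule, 4 receptors (EGFR, ERBB2, ERBB3 and ERBB4) and 6 ligands (EGF, TGFA, AREG, HBEGF, EREG and NRG1), out of 24916 gene rows measured. All 10 had a row. This established breast carcinoma line lacks hormone receptors and ERBB2 amplification and has a mesenchymal look in culture, and the labels name the derivative Luc. RRAS2 encodes a GTPase related to the classical RAS proteins. The cells, marked KDRRAS2.p1, were a pool carrying the RRAS2 hairpin lentivirus TRCN0000047025, harvested during exponential growth. The 3 arrays form 1 group of biological replicates 1 to 3 from that pool, so their spread does not cover differences between transduced pools. Nothing in the labels says whether the replicates came from separate cultures. MDA-Control cells, with a control hairpin, are also part of the design. Their arrays were not analysed here, so every value below is a level in cells labelled as knockdown and none is an effect of RRAS2 loss. With 1 group, no test was made.

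The ERBB receptors are transmembrane tyrosine kinases that dimerise, usually after a ligand has bound, and pass the signal to the RAS-ERK and PI3K-AKT pathways. EGF, TGF-alpha and amphiregulin (AREG) bind EGFR. HB-EGF (HBEGF) and epiregulin (EREG) bind EGFR and ERBB4, and neuregulin 1 (NRG1) binds ERBB3 and ERBB4. ERBB2 has no known direct ligand and acts as a dimer partner, while ERBB3 has little kinase activity of its own. The ligands are made as membrane-anchored precursors that proteases cut to release the active factor. In breast cancer, ERBB2 is best known for its amplification in the HER2-positive class, and EGFR for its frequent expression in basal-like tumours.

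EREG and AREG are neighbours on chromosome 4, with EPGN before EREG and BTC after AREG in the order of protein-coding genes in RefSeq (GRCh38.p14). EPGN and BTC encode further EGF-family ligands. The upstream sequences of EREG and AREG are shown to let this pair be compared with EGFR, the main receptor, and with EGF, the ligand gene with signals below the array median. Each is the run of 250 bases before a gene start given by RefSeq on GRCh38.p14, 5′ to 3′ on the gene's strand, which is the plus strand in all 4 cases. Capitals mark TATAAA (the TATA box), TGACGTCA (a cyclic AMP response element), TGACTCA (an AP-1 site) and GGGCGG (an Sp1 box), or their reverse complements.
EREG, chr4:74364895-74365144: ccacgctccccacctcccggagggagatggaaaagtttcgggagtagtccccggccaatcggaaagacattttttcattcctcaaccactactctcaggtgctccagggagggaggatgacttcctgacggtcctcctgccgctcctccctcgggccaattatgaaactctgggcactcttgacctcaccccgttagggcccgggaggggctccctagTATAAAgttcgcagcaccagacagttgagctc
AREG, chr4:74444886-74445135: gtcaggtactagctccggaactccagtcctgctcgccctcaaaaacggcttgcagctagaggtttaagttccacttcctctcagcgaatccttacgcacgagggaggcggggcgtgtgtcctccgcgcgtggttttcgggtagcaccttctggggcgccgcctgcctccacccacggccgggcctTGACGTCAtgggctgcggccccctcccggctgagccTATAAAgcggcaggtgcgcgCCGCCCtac
EGFR, chr7:55018767-55019016: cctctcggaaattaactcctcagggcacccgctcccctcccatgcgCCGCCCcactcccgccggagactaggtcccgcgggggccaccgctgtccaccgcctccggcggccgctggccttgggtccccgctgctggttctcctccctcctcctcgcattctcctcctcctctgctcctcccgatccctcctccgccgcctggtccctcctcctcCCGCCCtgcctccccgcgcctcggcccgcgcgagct
EGF, chr4:109912633-109912882: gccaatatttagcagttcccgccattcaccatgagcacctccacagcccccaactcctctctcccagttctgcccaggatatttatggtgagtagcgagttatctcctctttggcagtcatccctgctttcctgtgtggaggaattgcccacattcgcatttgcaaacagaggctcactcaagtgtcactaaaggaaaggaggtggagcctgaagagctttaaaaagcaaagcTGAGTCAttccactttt

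TATAAA began 32 bases before the start in EREG and 29 bases before it in AREG. AREG also held TGACGTCA, which reads alike on both strands, beginning 65 bases before the start. The EGFR sequence held GGGCGG at 2 places and none of the other motifs, and RefSeq also lists a second EGFR start whose upstream sequence held both TATAAA and TGACTCA. EGF held TGACTCA beginning 17 bases before the start. Promoters were read for 8 of the 10 genes (10 promoters, as EGFR and TGFA have 2 each), with matches on both strands and overlaps between matches allowed. ERBB3 had no promoter entry. NRG1, on chromosome 8, was left out by a filter on that chromosome, which was not applied to the promoters of all genes. The shares below therefore do not cover these genes. TATAAA was in 3 of these 10 promoters, against 10.7% of the 35114 promoters of all genes. TGACGTCA was in 1 of 10, against 1.65%, TGACTCA in 2 of 10, against 4.20%, and GGGCGG in 5 of 10, against 42.6%. The CpG count relative to that from base composition was 0.53 in EREG, 0.87 in AREG, 0.88 in the printed EGFR sequence and 0.21 in EGF, with a median of 0.56 over all promoters. These matches describe the letters of the reference and were not measured in these cells.

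Each array gave 1 value per gene, read as log2. The 3 arrays were on like scales. Over all rows the medians of replicates 1 to 3 were 6.84, 6.81 and 6.80, and their 75th percentiles were 9.04, 9.05 and 9.05 in the same order. The signal of a gene depends on its own probes, so the genes below are not ranked against one another as transcript amounts. The position of a value among all rows of its array, as a percentile, is a description of signal only. A measured background was not used here, so a gene under the median is not shown to be silent. For 41.7% of all rows, replicate 3 lay farther than the others from the middle of the 3 values, and results that rest on it are given without it too.

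Most genes of the set had signals in the upper part of each array. Of the 10, 8 lay above the array's median on all 3 arrays (3 of 4 receptors and 5 of 6 ligands), beside 48.6% of all rows. The other two, ERBB4 and EGF, lay below it on all 3. Of the 10, 4 lay above the 75th percentile on all 3 arrays (EGFR, ERBB2, HBEGF and EREG), beside 23.9% of all rows. All 10 lay above the 25th percentile, beside 73.4% of all rows. The genes are a known pathway and the set was proposed with earlier results of these data in view, so these shares describe the set and test nothing.

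**Figure D1:**
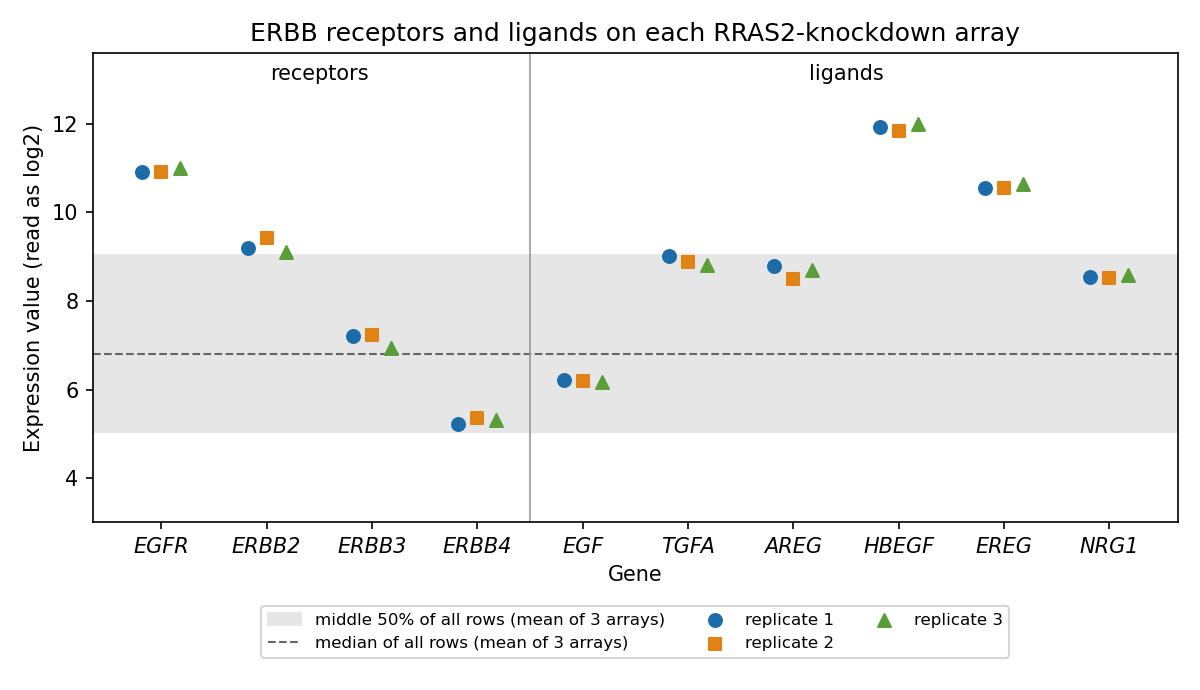
Expression values (vertical axis, read as log2) of the 4 receptors and 6 ligands on the 3 RRAS2-knockdown arrays, 1 point per array. The grey band spans the 25th to 75th percentile of all rows and the dashed line is their median, each averaged over the arrays. EGFR, HBEGF and EREG sit well above the band, ERBB3 lies just above the median, and ERBB4 and EGF lie below it.

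EGFR (ENSG00000146648), the receptor for most of these ligands, had 10.91, 10.91 and 10.99 on replicates 1 to 3 (mean 10.94 ± 0.050, SD, n = 3). The arrays lay within a 1.06-fold range, and the signals stood at percentiles 92.6, 92.5 and 93.2 of their arrays. This was 4.07 to 4.19 log2 units above the array medians. Without replicate 3 the 2 remaining values differed by 0.0017 log2 units.

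ERBB2 (ENSG00000141736), the partner without a ligand, had 9.20, 9.43 and 9.10 on replicates 1 to 3 (mean 9.24 ± 0.17, SD, n = 3). It was above the 75th percentile on each array, in replicate 3 by the least (9.10 against a limit of 9.05). Replicate 2 was the high array, and the 1.26-fold range between arrays was the widest of the set. Its SD was at or above that of 84.4% of the 1356 other rows whose mean lay within 0.25 log2 units of its own, which had a median SD of 0.094.

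ERBB3 (ENSG00000065361), the neuregulin receptor with a weak kinase, had 7.22, 7.23 and 6.93 (mean 7.13 ± 0.17, SD, n = 3). Replicates 1 and 2 were alike and replicate 3 was the low array. ERBB3 stood 0.38, 0.42 and 0.13 log2 units above the medians of the same arrays, so in replicate 3 its margin was smaller than its SD. Its place above the median was therefore the least secure of the 8 genes there. Without replicate 3 its mean was 7.22 and its values differed by 0.014.

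ERBB4 (ENSG00000178568), the other neuregulin receptor, had 5.21, 5.36 and 5.33 (mean 5.30 ± 0.075, SD, n = 3). These values lay 1.45 to 1.62 log2 units below the array medians, at percentiles 27.5, 29.9 and 29.4. No array brought ERBB4 near the median, and its range was 1.10-fold.

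Among the ligands, HBEGF (ENSG00000113070), which is also the receptor for diphtheria toxin, had 11.94, 11.84 and 11.99 (mean 11.93 ± 0.077, SD, n = 3). It stood at percentiles 97.4, 97.0 and 97.6 of the 3 arrays. EREG (ENSG00000124882), the ligand encoded beside AREG, had 10.55, 10.56 and 10.65 (mean 10.58 ± 0.053, SD, n = 3), at percentiles 90.1, 90.1 and 90.7. Without replicate 3 the SD of EREG was 0.0089. Both ligand genes lay above the 75th percentile on every array by more than 1 log2 unit, far more than their SDs.

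AREG (ENSG00000109321), the other ligand of the chromosome 4 pair, had 8.79, 8.50 and 8.69 (mean 8.66 ± 0.15, SD, n = 3). Replicate 2 was the low array, and the range was 1.22-fold. RefSeq lists AREGB, an older name given to a copy of the gene, as a synonym of AREG, and how probes were assigned between copies is not given in the sources used here, so the AREG value is uncertain. EREG and AREG did not have the same array as their outlying one. EREG was highest in replicate 3 with the other two close together, whereas AREG was lowest in replicate 2.

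TGFA (ENSG00000163235), which encodes TGF-alpha, had 9.02, 8.89 and 8.81 (mean 8.91 ± 0.11, SD, n = 3). It fell just short of the 75th percentile in replicate 1 (9.02 against a limit of 9.04), and lay further under it on the other arrays. NRG1 (ENSG00000157168), the ligand of ERBB3 and ERBB4, had 8.54, 8.52 and 8.58 (mean 8.55 ± 0.029, SD, n = 3), at percentiles 69.3, 69.0 and 69.5. The values of NRG1 were among the closest of the set, with a range of 1.04-fold, and without replicate 3 their SD was 0.013. NRG1 is transcribed from several starts into many isoforms, and 1 value per gene does not separate them.

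EGF (ENSG00000138798), the ligand that gives the family its name, had 6.21, 6.19 and 6.17 (mean 6.19 ± 0.024, SD, n = 3). It was the only ligand gene of the 6 below the array medians, by 0.61 to 0.63 log2 units. Its 1.03-fold range over the 3 arrays was the narrowest of the set. Without replicate 3 it was not, since replicates 1 and 2 differed by 0.020 log2 units in EGF, against 0.0017 in EGFR, 0.013 in EREG, 0.014 in ERBB3 and 0.018 in NRG1. The SD of EGF was then 0.014. Of the 1755 other rows with a mean within 0.25 log2 units, 5.19% had an SD as low as that of EGF or lower, and the median SD of those rows was 0.097.

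The replicate error of the set was like that of the arrays in general. The median SD of the 10 genes was 0.076 log2 units, beside 0.086 for all 24916 rows, and single genes went from 0.024 (EGF) to 0.17 (ERBB2). No gene of the set (0 of 10) ranged over more than 0.5 log2 units, beside 3.52% of all rows. Only ERBB2, ERBB3 and AREG, 3 of 10, ranged over more than 0.25 units, beside 25.9% of all rows. The median SD was 0.12 over the 4 receptors and 0.065 over the 6 ligands, sets too small to compare. For rows of like level, the share with an SD no higher was 80.2% for ERBB3, 76.9% for AREG, 59.5% for HBEGF and 57.1% for TGFA. It was 37.6% for ERBB4, 25.4% for EREG, 25.1% for EGFR and 7.39% for NRG1. ERBB2, ERBB3 and AREG thus had a higher SD over the 3 arrays than most rows of their level, and EGF and NRG1 a lower one. Without replicate 2 the SD was 0.071 in ERBB2 and 0.072 in AREG, and without replicate 3 it was 0.0098 in ERBB3. Leaving out the farthest of 3 arrays always lowers the SD, so these drops do not set the 3 genes apart. In EGFR, which had a lower SD, it was 0.0012 without replicate 3.

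**Figure D2:**
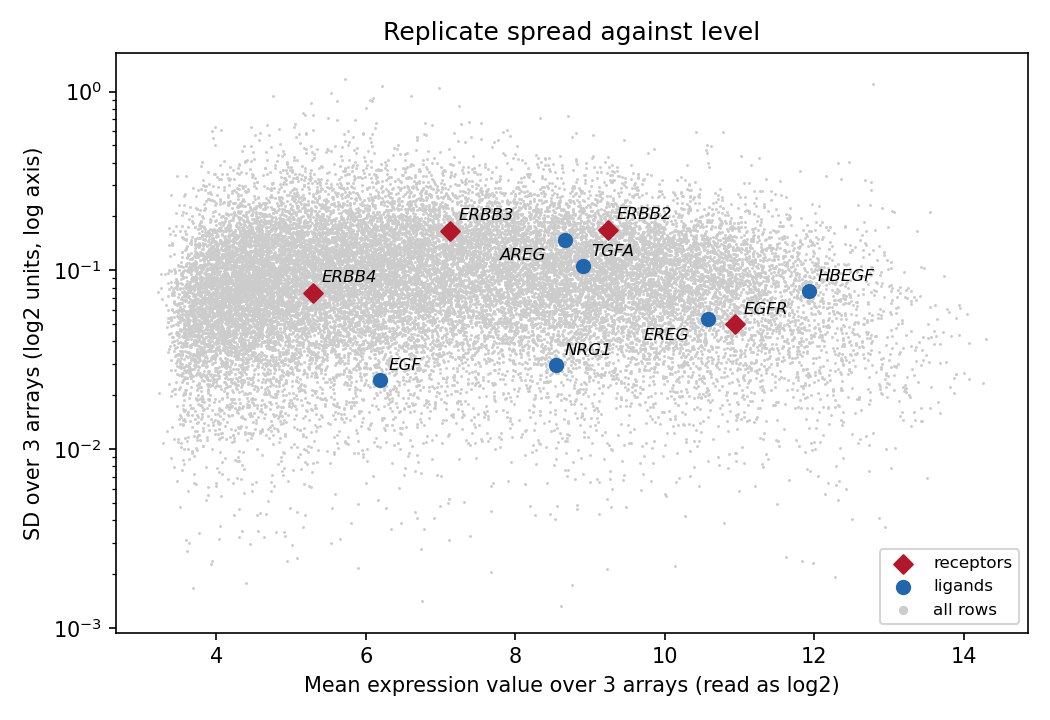
SD over the 3 arrays (vertical log axis, log2 units) against the mean expression value (horizontal axis, read as log2), with 1 diamond per receptor, 1 circle per ligand and 1 grey dot for each of the 24916 rows. ERBB2, ERBB3 and AREG lie in the upper part of the cloud at their level (SD 0.15 to 0.17), and EGF and NRG1 in its lower part (0.024 and 0.029).

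The array that stood apart differed from gene to gene, in shares near those of all rows. Replicate 3 was the farthest array for 5 of the 10 genes (EGFR, ERBB3, EGF, EREG and NRG1), beside 41.7% of all rows. Replicate 2 was farthest for ERBB2, AREG and HBEGF, beside 31.3% of all rows. Replicate 1 was farthest for ERBB4 and TGFA, beside 27% of all rows. Replicate 3 was the highest array for 4 genes (EGFR, HBEGF, EREG and NRG1), beside 35.2% of all rows. It was the lowest for another 4 (ERBB2, ERBB3, EGF and TGFA), beside 37.9% of all rows.

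The value in replicate 3 less the mean of replicates 1 and 2 was largest in ERBB3, at -0.29 log2 units, followed by ERBB2 at -0.21 and TGFA at -0.14. On the other side it was 0.10 in HBEGF, 0.092 in EREG and 0.086 in EGFR. Among the 4 receptors it was positive in EGFR and ERBB4 and negative in ERBB2 and ERBB3. Replicate 3 was not the farthest array in ERBB4, where replicate 1 was low, or in ERBB2, where replicate 2 was high. Over all rows the middle 90% of this difference lay between -0.27 and 0.27, so ERBB3 was the only gene of the 10 beyond it. Among the 1450 rows of like level, 6.48% had a difference as low as that of ERBB3 or lower. The labels give no batch, RNA quality or date to set beside these differences.

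**Figure D3:**
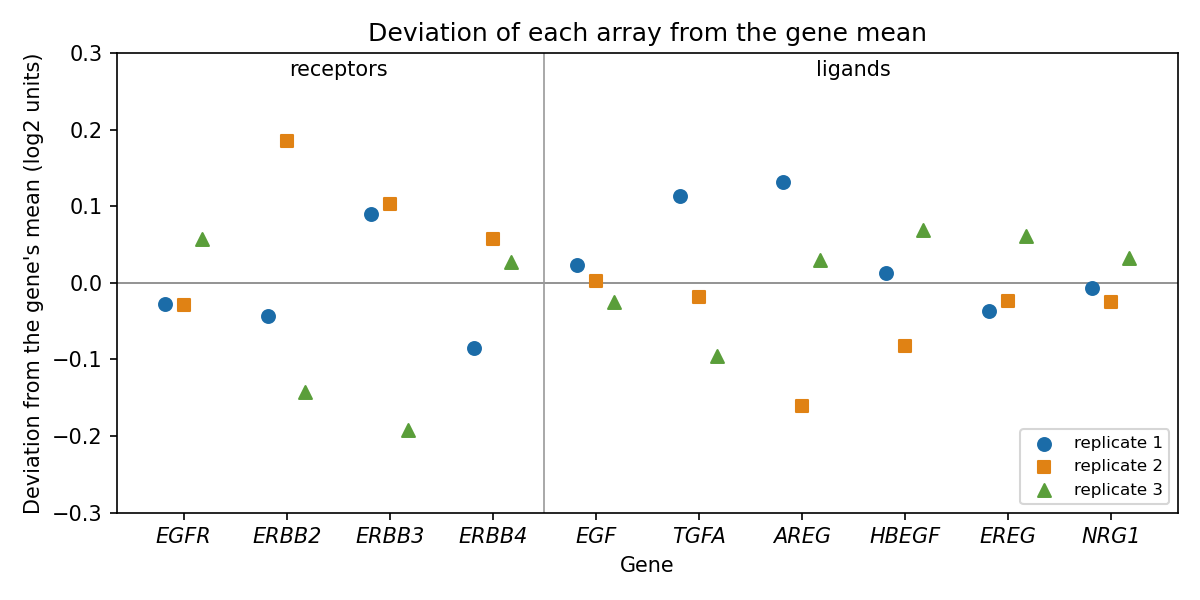
Deviation of each array from the gene's own mean (vertical axis, log2 units) for the 10 genes, 1 point per array. Replicate 3 is the lowest point for ERBB2, ERBB3, EGF and TGFA and the highest for EGFR, HBEGF, EREG and NRG1. The lowest point is ERBB3 in replicate 3 at -0.19 and the highest is ERBB2 in replicate 2 at 0.19.

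Between pairs of arrays, the 10 genes had a median absolute difference of 0.058 (replicates 1 and 2), 0.099 (replicates 1 and 3) or 0.086 (replicates 2 and 3). Over all rows it was 0.084, 0.10 and 0.11, taking the pairs in that order. The largest difference within each pair belonged to AREG for replicates 1 and 2 (0.29), to ERBB3 for replicates 1 and 3 (0.28) and to ERBB2 for replicates 2 and 3 (0.33).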

How the data were processed

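Per the labels' protocols, 3 total RNA preparations (Trizol) were biotin-labelled for Affymetrix expression arrays. The deposited values are read as log2 because the submitters' processing notes name RMA, whose output is log2, and the affy package. The table names no scale, and the genome build, array model and probe definition were not given in the sources used here. RMA corrects background, normalises arrays and summarises probes, which pulls arrays together and compresses low values. The 24916 rows carry Ensembl identifiers. The identifiers of the 10 genes came paired with symbols in the definition of the set. The RefSeq gene table (59792 genes) paired 0 rows with a symbol, so the planned lists of pathway genes and cell line markers, and RRAS2, were not used here. The planned comparison of protein sequences was not run. The rule for the set uses gene names and no measured value, but the genes and lists were chosen with earlier results of these data known. All 10 genes are named.

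Mean, SD and range over arrays, each array's percentiles and the farthest array (from the middle of 3 values) were computed for every row. Rows of like level have a mean within 0.25 log2 units. The SD, range and farthest array were tested on simulated data. The counts above array percentiles and the shares of like-level rows were not. Depth is not defined for arrays, and n = 3 limits the precision. Alternatives were quantile and cyclic loess normalisation, median centring, other limits, a wider level window of 0.5 log2 units and leaving out each replicate. Upstream sequences were taken from RefSeq. Python 3.11.15, numpy 2.4.6, pandas 2.3.3, matplotlib 3.10.9, R 4.3.3 and limma 3.58.1 were used.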

Additional observations from a re-analysis of the deposited data

How the results depend on the processing

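The count of 8 genes above the array median on all 3 arrays was 8 under quantile normalisation, median centring and cyclic loess. It was also 8 with at least 2 of 3 arrays and without each replicate in turn. Quantile normalisation and median centring keep the order of rows within an array, so they could not change this count. ERBB4 and EGF lay below the median on all 3 arrays, so the counts on fewer arrays were fixed too. Only cyclic loess could have given another count. It was 7 with the mean of the array as limit, where ERBB3 dropped out, 10 with the 25th percentile and 4 with the 75th percentile, as stricter limits hold fewer rows by construction. The count of genes ranging over 0.5 log2 units was 0 under each normalisation. Without each replicate it was 0 by construction, as a range cannot widen. With a limit of 0.25 units it was 3. The median SD of 0.076 was 0.083 to 0.087 under the 3 other normalisations. With 1 replicate left out it went from 0.041 (without replicate 3) to 0.070 (without replicate 2). An SD of 2 arrays tends to be lower than one of 3, so these values are not like for like. Quantile normalisation moved the means of the 10 genes by at most 0.0020 log2 units. Median centring and cyclic loess, as run, keep each mean by construction. With a replicate left out the means moved by at most 0.096 (ERBB3 without replicate 3). All 60 moves were less than the gene's SD. Leaving out 1 of 3 values always moves a mean by less than the SD, so those cases were fixed too. The SD of EGF was 0.010 to 0.011 under the 3 normalisations, against 0.024 as deposited. For the other 9 genes it stayed within 1.5 times under these. With 1 replicate left out, 10 of 30 SDs moved by more than 1.5 times. Each of these was the SD of a gene without its farthest array. Leaving out the farthest of 3 values lowers an SD by construction, so this count says little about the genes. The window of 0.5 log2 units left the shares of like-level rows within 1.5 times for all 10 genes. No paired analysis was possible with 1 group. The signal above background was not computed, and the cause of the moves was not tested.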
